A study of Rattus norvegicus with 8 samples.

Results

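This account describes the receptors for vitamin D, steroid hormones, thyroid hormone and fatty acids in the enamel organ of the rat incisor, together with Cyp24a1, the enzyme that breaks down active vitamin D. The members were the 9 genes Vdr, Cyp24a1, Rxra, Nr3c1, Esr1, Thra, Thrb, Ppara and Pparg, found by their symbol among the 21558 gene symbols of an Illumina rat expression BeadChip. Each was read by 1 probe. The rule that picks the members goes by symbol and uses no measured value, but the list of symbols was chosen with earlier results of these data known.

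Nuclear receptors are transcription factors that small fat-soluble molecules switch on or off. Many of them bind DNA as a pair with a retinoid X receptor such as Rxra, often at repeats of a short hexamer close to AGGTCA. In teeth, vitamin D and thyroid hormone are best known for their place in mineral supply and in the timing of development, and want of vitamin D disturbs the mineralization of enamel and dentine.

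Total RNA came from 4 Wistar rats aged 4 weeks, which the methods describe as male Wistar Hannover rats. Each rat gave an enamel organ sample of the secretory stage, when ameloblasts lay down the enamel matrix, and one of the maturation stage, when the matrix is removed and mineral is added, so there were 4 arrays for each stage. The groups carried no engineered allele and had received no agent, and differed in the stretch of the incisor that was dissected. The enamel organ holds ameloblasts with other epithelial cells, vessels and blood-borne cells, so that fewer cells of a type and less RNA per cell cannot be told apart in any value given here.

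A probe was called detected on an array when its deposited detection p-value, which sets its signal against the negative control beads, was below 0.05. By this rule 10667 to 11450 of 22523 probes were detected on an array, and the sums of signal intensity ran from 1.34e+07 to 1.61e+07 in the maturation arrays against 1.19e+07 to 1.20e+07 in the secretory arrays. On maturation replicates 2, 3 and 4 the source label names the secretory stage, against the title, description and tissue of the same samples. All 8 arrays were nearer to the other arrays of the stage in their titles than to the other stage. Klk4, a protease of maturing enamel, was 7.57 log2 units higher in the maturation stage and Enam, an enamel matrix protein, 4.98 log2 units lower. In the maturation arrays Enam ranged from 5.17 to 9.08 log2 units.

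Markers of other cells were also unequal between the stages. Of 12 macrophage and leukocyte markers on the array 6 were called higher in maturation, where 4.6% of all probes were. Among them were Cd68, by 2.19 log2 units, and Lcp1, by 1.601. The summed normalized signal of the 12 was 11437 to 14522 against 4699 to 5860. The summed signal was also higher, without overlap, for 5 endothelial markers (5550 to 7005 against 4315 to 5392). Of these Vwf was called and Cdh5 not detected, and the list's median difference was 0.08. The same held for the sum of 6 fibroblast markers (76612 to 79613 against 59560 to 70638), of which none was called, with a median difference of 0.19. The sum of 6 adipocyte markers was likewise higher (1752 to 2110 against 1136 to 1299), but the only one detected on all 8 arrays was Lpl, at 10.78 against 10.02 log2 units, and the list's median difference was -0.11, with Adipoq called lower and Lep not detected. For 4 blood and 6 muscle markers the sums overlapped, although the muscle marker Des, not detected in secretory samples, was called at least 2.13-fold higher, and the blood marker Alas2 differed by -1.07 without overlap and was not called. The part of these cells in the values below was not tested.

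Of the 9 members, 1 differed between the stages. Thrb, a receptor for thyroid hormone, was 2.48-fold higher in the maturation stage, while the probe of Thra, the related alpha gene, which is annotated to a splice form that does not bind the hormone, had nearly the same normalized mean in both. The normalized signals of Vdr, Rxra and Pparg overlapped between the stages and did not pass the test. Nr3c1, Esr1 and Cyp24a1 were not detected on any array, and Ppara was detected on 1. A probe was called when limma gave an adjusted p below 0.05 over all 22523 probes and the fold change was at least 1.8. This was met by 4.6% of all probes in the direction higher in maturation and by 3.15% in the direction lower. Among the 9156 probes detected on all 8 arrays, 8.73% were called higher. Thus 1 member of 9, or 1 of the 4 detected on all 8 arrays, is a count too small to set apart from that background. No member was called lower by limma or by the two-sample test that the methods name, which does not share the spread between probes. At an unadjusted p under 0.05, which 15.9% of all probes passed as higher and 18.3% as lower, none was lower with limma and 1 was lower with the methods' test, Esr1, which was not detected.

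**Figure D1:**
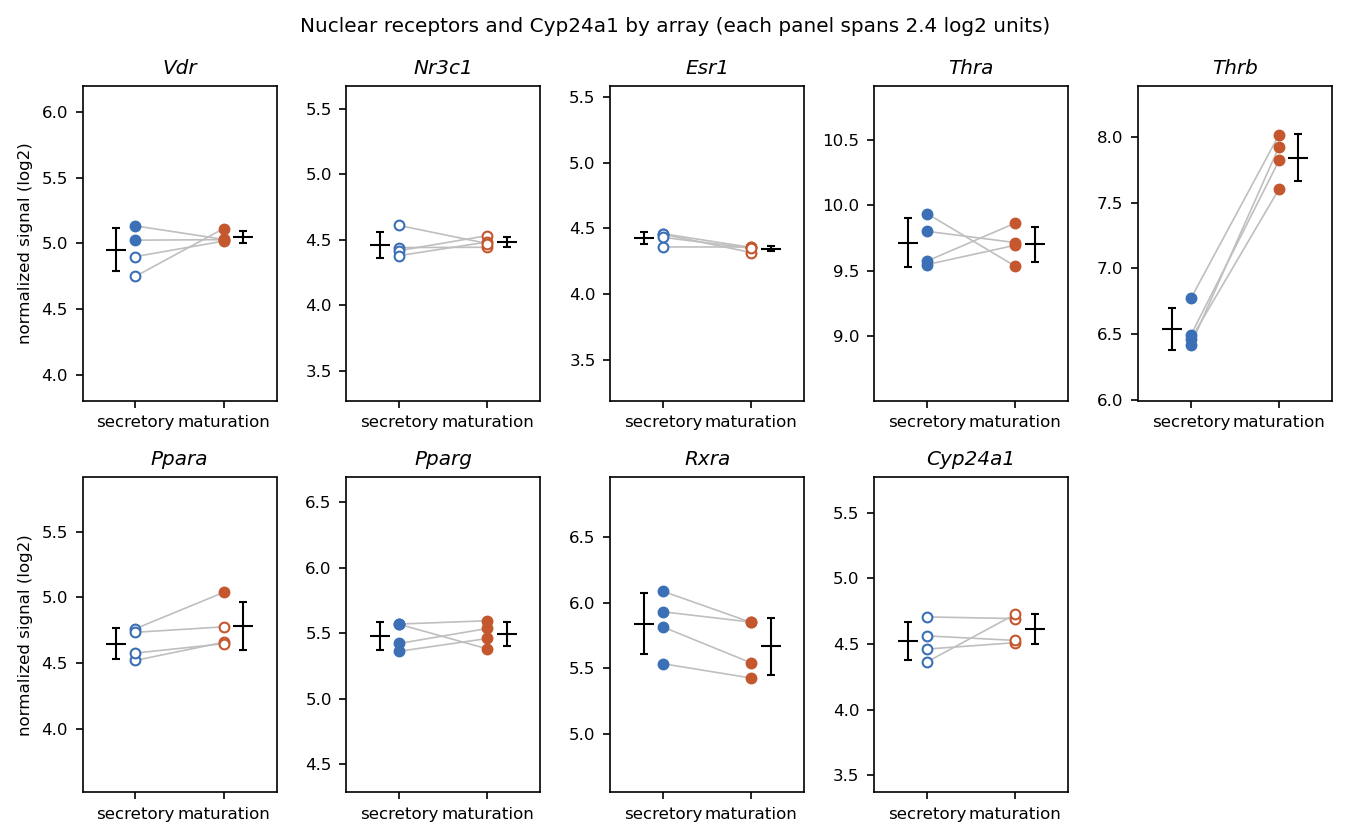
Normalized log2 signal of the 9 members on the 8 arrays. Filled points were detected and open points were not, grey lines join the stages of 1 rat, black bars give mean ± SD over 4 arrays, and every panel spans the same number of log2 units; only Thrb has its 4 maturation points above all 4 secretory points.

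The RefSeq promoter windows of the 2 thyroid hormone receptor genes are printed because one of the pair differed between stages and the other did not. Each runs from 250 bases before to 50 bases after the annotated start, 5′ to 3′ on the gene's strand in GRCr8, with hexamers AGGTCA or GGGTCA, searched on both strands, in capitals. Thrb lies on the minus strand at chr15:10461397-10461696 and the first of 2 Thra starts on the plus strand at chr10:84197891-84198190.
Thrb: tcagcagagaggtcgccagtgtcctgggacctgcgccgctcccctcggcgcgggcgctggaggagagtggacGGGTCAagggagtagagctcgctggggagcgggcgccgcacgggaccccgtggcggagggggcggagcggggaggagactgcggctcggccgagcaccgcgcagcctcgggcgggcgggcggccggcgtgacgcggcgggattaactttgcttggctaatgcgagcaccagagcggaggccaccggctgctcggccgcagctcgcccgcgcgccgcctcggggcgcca
Thra: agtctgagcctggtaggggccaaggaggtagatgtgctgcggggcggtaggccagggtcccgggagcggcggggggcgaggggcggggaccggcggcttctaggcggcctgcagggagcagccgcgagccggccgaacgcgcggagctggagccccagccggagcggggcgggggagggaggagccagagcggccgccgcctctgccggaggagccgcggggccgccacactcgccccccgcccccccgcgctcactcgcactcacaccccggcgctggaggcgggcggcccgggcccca

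The Thrb window holds 1 such hexamer, GGGTCA on the gene's strand, with its first base at position -178 from the start. The Thra window holds none. Promoter windows were at hand for 8 members, 11 windows in all, and 3 of them held a hexamer. The other 2 were the windows of Pparg, the receptor that drives fat cell formation, in which GGGTCA began at -172 and at -225 from their starts. Of 33469 rat promoters 27.4% held at least 1 of these hexamers. Direct repeats of 2 hexamers spaced by 1, 3 or 4 bases, the arrangements named for the retinoid X receptor with PPAR, vitamin D receptor and thyroid hormone receptor, occurred in none of the 11 windows, and in 0.131%, 0.0299% and 0.0388% of all promoters. These are matches of letters and no measure of binding. The members' probes are listed on chromosomes 7 (Vdr and Ppara), 18 (Nr3c1), 1 (Esr1), 10 (Thra), 15 (Thrb), 4 (Pparg) and 3 (Rxra and Cyp24a1) in the annotation of the array, whose genome build is not given in the sources used here.

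Thrb encodes the thyroid hormone receptor beta, which changes the transcription of its targets when it binds the hormone. Its deposited signal was 353.6, 386.8, 361.2 and 360.9 in maturation replicates 1 to 4. In secretory replicates 1 to 4 it was 158.2, 162.2, 181.0 and 160.1. All 4 maturation arrays lay above all 4 secretory arrays, and the standard error over the beads of the probe was 4.74 to 13.0 on any array. Over all probes, 13.1% had their maturation values all above their secretory values.

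After background correction and quantile normalization the Thrb level was 7.85 ± 0.178 log2 units in maturation (SD, n = 4) and 6.54 ± 0.160 in secretory samples. The difference was 1.31 log2 units with SE 0.107 and a 95% interval of 1.07 to 1.55 (limma, adjusted p = 1.50e-05). It was 1.14, 1.51, 1.25 and 1.33 in rats 1 to 4, so each rat gave the same direction. The exact two-sided permutation test over the 8 arrays gave p = 0.0286, the smallest that 4 arrays against 4 can give. With stages exchanged only within a rat the exact p was 0.125, the smallest that 4 rats can give. Leaving out 1 array at a time gave 1.25 to 1.39. Without background correction the difference was 0.80, below the 1.8-fold threshold, with an adjusted p of 3.10e-06.

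The 3 probes whose pattern over the 8 arrays was nearest to that of Thrb, among the 9155 others detected on all arrays, were those of Fn1, RGD1308064 (Mpv17l2) and Ada. Fn1 encodes fibronectin of the extracellular matrix and Ada encodes adenosine deaminase of purine breakdown. The root mean square difference from Thrb, after each probe's mean was taken off, was 0.0707, 0.0873 and 0.0919 log2 units. Their own differences between stages were 1.33, 1.35 and 1.28.

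The Thra probe is annotated to the TRalpha2 transcript, the splice form whose protein does not bind thyroid hormone, and whether it also reads the hormone-binding form is not known here. Its deposited signal was 1308, 971.6, 959.3 and 1085 in maturation replicates 1 to 4. The secretory replicates gave 695.9, 915.8, 842.9 and 676.2. As deposited, the maturation signals were all above the secretory ones, on arrays whose total signal was also higher.

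After quantile normalization this separation was gone. The Thra level was 9.70 ± 0.134 log2 units in maturation and 9.71 ± 0.186 in secretory samples (SD, n = 4), and the arrays of the stages overlapped. The difference was -0.01 with a 95% interval of -0.25 to 0.22 (limma, adjusted p = 0.959), and rats 1 and 4 went up by 0.29 and 0.15 while rats 2 and 3 gave -0.40 and -0.09. Without normalization between arrays it was 0.51 with an adjusted p of 0.0186, still below the fold threshold, and the median of all probes detected on 8 arrays was then 0.40. With arrays scaled to a common median it was 0.31, beside a median of 0.20 for those probes. Leaving out 1 array gave -0.07 to 0.06, above 0 without maturation replicate 2 (0.0437), secretory replicate 2 (0.0606) or secretory replicate 3 (0.0160). The sign of the Thra difference thus changed with the scaling and with single arrays, whereas Thrb stayed higher under each scaling run, by 1.31 to 1.803.

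**Figure D2:**
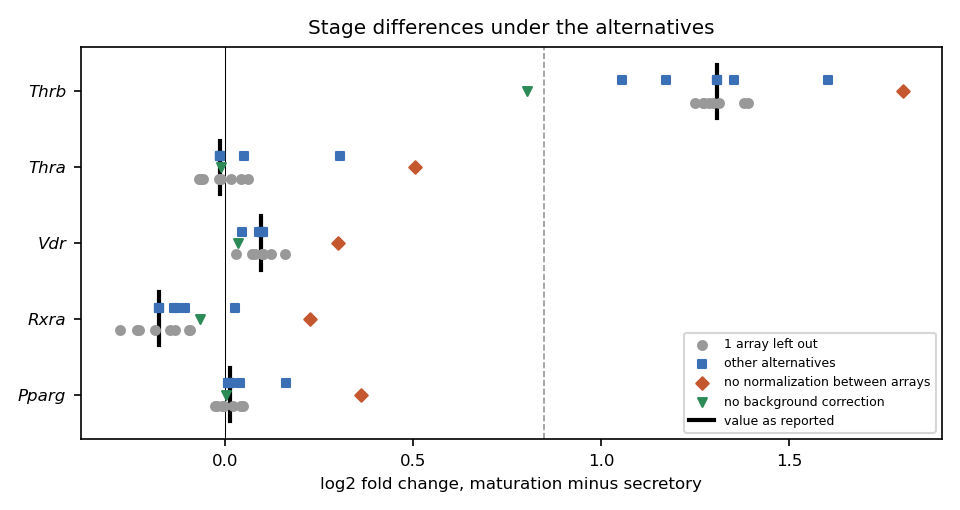
Log2 fold change of the 5 members detected in both stages, maturation minus secretory, under each alternative; the black bar is the value as reported and the dashed line the 1.8-fold threshold. Thrb is above 0 in every alternative and falls under the threshold only without background correction, whereas Thra and Rxra change sign with the scaling, and Thra and Pparg with single arrays left out.

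Of 7 measured genes for hormone activation and transport, 5 were not detected on any array and none was called by limma or by the methods' test; at an unadjusted p under 0.05 limma had 1 lower and 0 higher, against 18.3% and 15.9% of all probes. Slc16a10, an amino acid transporter that also carries thyroid hormone, differed by -0.07 log2 units. Of 4 known target genes 1 was called higher, where 4.6% of all probes were. This was Klf9, a transcription factor, which rose by 1.33 log2 units (SE 0.0751). It went from 7.24 to 7.47 in the secretory arrays to 8.57 to 8.80 in the maturation arrays. Me1, the malic enzyme, was 0.55 higher and Hr, a corepressor of nuclear receptors, 0.33 higher, and both were under the fold threshold. At an adjusted p below 0.05 alone 2 of the 4 targets were higher, where 26.9% of all probes passed in either direction, and at an unadjusted p under 0.05 it was 3, where 15.9% of all probes passed as higher. Me1 was called with arrays scaled to a common median (0.86, adjusted p = 0.000311), and both were called without normalization between arrays (Me1 1.06, Hr 0.85). The median difference was 0.44 over these targets and -0.01 over all probes.

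Vdr, the vitamin D receptor, was close to the limit of detection. Its deposited signal was 133.4, 128.9, 123.0 and 133.0 in maturation replicates 1 to 4, all detected. In the secretory replicates it was 111.9, 119.1, 117.1 and 110.2, and only replicates 2 and 3 were detected. The lowest signal that counted as detected was 121.0 to 130.1 on the maturation arrays and 115.4 to 117.2 on the secretory arrays, so the probe lay at that edge in both stages. As deposited, the maturation signals were all above the secretory ones, on arrays with a higher total signal and a higher lowest detected signal. How many of all probes separated in this way as deposited was not counted.

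The normalized Vdr level was 5.05 ± 0.0440 log2 units in maturation and 4.95 ± 0.165 in secretory samples (SD, n = 4). The difference of 0.10 had a 95% interval of -0.09 to 0.28 (limma, adjusted p = 0.512), and the exact two-sided permutation test gave p = 0.343. The normalized values of the stages overlapped, with secretory replicate 2 the highest of the 8. The difference was 0.0293 without secretory replicate 4 and 0.16 without secretory replicate 2, and 0.30 (adjusted p = 0.0240) without normalization between arrays, under the fold threshold. Under none of the alternatives was Vdr called.

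Cyp24a1, which inactivates vitamin D and is itself induced through Vdr, was not detected on any array, with detection p-values of 0.161 to 0.941. Rxra, the partner of Vdr, was detected on all 8 arrays. Its deposited signal was 170.5, 142.9, 149.9 and 147.8 in maturation replicates 1 to 4, against 142.5, 128.9, 140.9 and 134.7 in the secretory replicates. The maturation signals were all above the secretory ones as deposited, on arrays with a higher total signal, and the normalized values overlapped.

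On the normalized scale Rxra was 5.67 ± 0.217 log2 units in maturation and 5.84 ± 0.233 in secretory samples (SD, n = 4), a difference of -0.17 with a 95% interval of -0.48 to 0.13 (limma, adjusted p = 0.454). It was lower in 4 of 4 rats, by 0.08 to 0.27 in size, but 0.03 higher with arrays scaled to a common median and 0.23 higher without normalization between arrays. The 2 other retinoid X receptors are given here after their values were seen. Rxrg was 0.71 higher in the maturation stage, under the fold threshold, and the 2 probes of Rxrb gave 0.56 and 0.02.

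Genes of vitamin D metabolism and action included large differences in both directions. Of 7 listed genes of metabolism and transport 5 were measured, Cyp27b1 and Lrp2 having no probe, and 2 were detected on all 8 arrays. Only 1 was called, where 4.6% of all probes were called higher. This was Cyp27a1, a mitochondrial enzyme that hydroxylates sterols and can hydroxylate vitamin D. Its level was 9.23 ± 0.121 log2 units in maturation and 7.48 ± 0.151 in secretory samples (SD, n = 4), 1.75 higher with SE 0.0913 (limma, adjusted p = 8.54e-07). The median of the 5 measured genes was -0.05. The summed macrophage, endothelial, fibroblast and adipocyte markers given above were higher in the same arrays, and their part in this value was not tested.

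Of 9 measured genes that vitamin D is known to regulate 3 rose and 1 fell, where 4.6% of all probes were called higher and 3.15% lower. The median of the 9 was -0.02. S100g, the calcium-binding protein calbindin-D9k, rose by 7.57 log2 units, from 4.76 to 5.24 in the secretory arrays, of which 2 detected it, to 12.2 to 12.9 in the maturation arrays. Its secretory mean, 4.99, was below the lowest detected level of 5.01 to 5.06, and with each secretory array raised to at least that level the difference was 7.46. Spp1, the phosphoprotein osteopontin, rose by 3.62 (SE 0.234), and Tnfsf11, the osteoclast factor RANKL, by 1.25 (SE 0.115). Of the secretory arrays only 1 detected Tnfsf11, whose mean there, 4.92, was also below that level; with its arrays raised likewise the difference was 1.10. The call was lost without background correction (0.45) and with an offset of 50 (0.72). Atp2b1, a calcium pump of the plasma membrane, fell by 2.45 (SE 0.101). Calb1, the larger calbindin, was at 14.8 log2 units in maturation and 14.7 in secretory samples. Bglap, osteocalcin, had a secretory SD of 1.30, wider than its difference of -0.16. Secretory replicate 1 gave 11.11 for Bglap, against 13.03 to 13.98 in the other secretory arrays. Without that array the difference was -0.76 (limma, adjusted p = 0.0195), under the fold threshold. These genes answer to many other signals besides vitamin D.

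The glucocorticoid receptor Nr3c1, which binds corticosterone in the rat, was not detected on any of the 8 arrays. Its detection p-values were 0.320 to 0.910 and its deposited signal 95.2 to 110.0, so no level or fold change is given. This says only that the 1 probe did not rise above the negative controls. Enzymes that set the supply of its hormone were measured, and they moved in opposite directions.

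Hsd11b1, which regenerates active glucocorticoid from its inactive form, was 7.32 ± 0.0985 log2 units in maturation and 6.12 ± 0.116 in secretory samples (SD, n = 4). It rose by 1.21 with SE 0.0775 (limma, adjusted p = 3.00e-06). Hsd11b2, which inactivates glucocorticoid, was 7.73 ± 0.343 in maturation and 9.29 ± 0.242 in secretory samples. It fell by 1.57 with SE 0.176 (limma, adjusted p = 0.000113). For neither enzyme did the stages overlap, and without background correction Hsd11b1 was 0.65 higher, below the fold threshold. Of the other 5 measured genes of this list none was called, and 2 were not detected on any array. The receptor's chaperones Hsp90aa1 and Ptges3 differed by 0.10 and -0.47. For Ptges3 the stages did not overlap (limma, adjusted p = 0.00421), and its difference was under the fold threshold. The list's median was -0.01, and of all probes 4.6% were called higher and 3.15% lower.

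Of 8 measured genes known to be induced by glucocorticoid 4 rose and 1 fell, where 4.6% of all probes were called higher and 3.15% lower. The median of the 8 was 0.85. Fkbp5, a co-chaperone that lowers the receptor's affinity for hormone, fell by 3.01 log2 units (SE 0.102), from 12.1 to 12.3 in the secretory arrays to 8.998 to 9.445 in the maturation arrays. Sgk1, a kinase that regulates ion transport, rose by 2.07 (SE 0.111). Dusp1, a phosphatase that switches off MAP kinases, rose by 1.74 (SE 0.101), and Klf9, named above among thyroid hormone targets, by 1.33. The remaining riser was Tsc22d3, the leucine zipper protein GILZ, at 1.24 (SE 0.0626), named after its value was seen. Per1, a clock gene, and Ddit4, an inhibitor of mTOR signalling, were 0.47 and 0.25 higher and did not pass, although Per1 was called without normalization between arrays (1.01). Thus the genes of this list did not move as one, and the list is drawn from general knowledge and not from enamel organ.

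**Figure D3:**
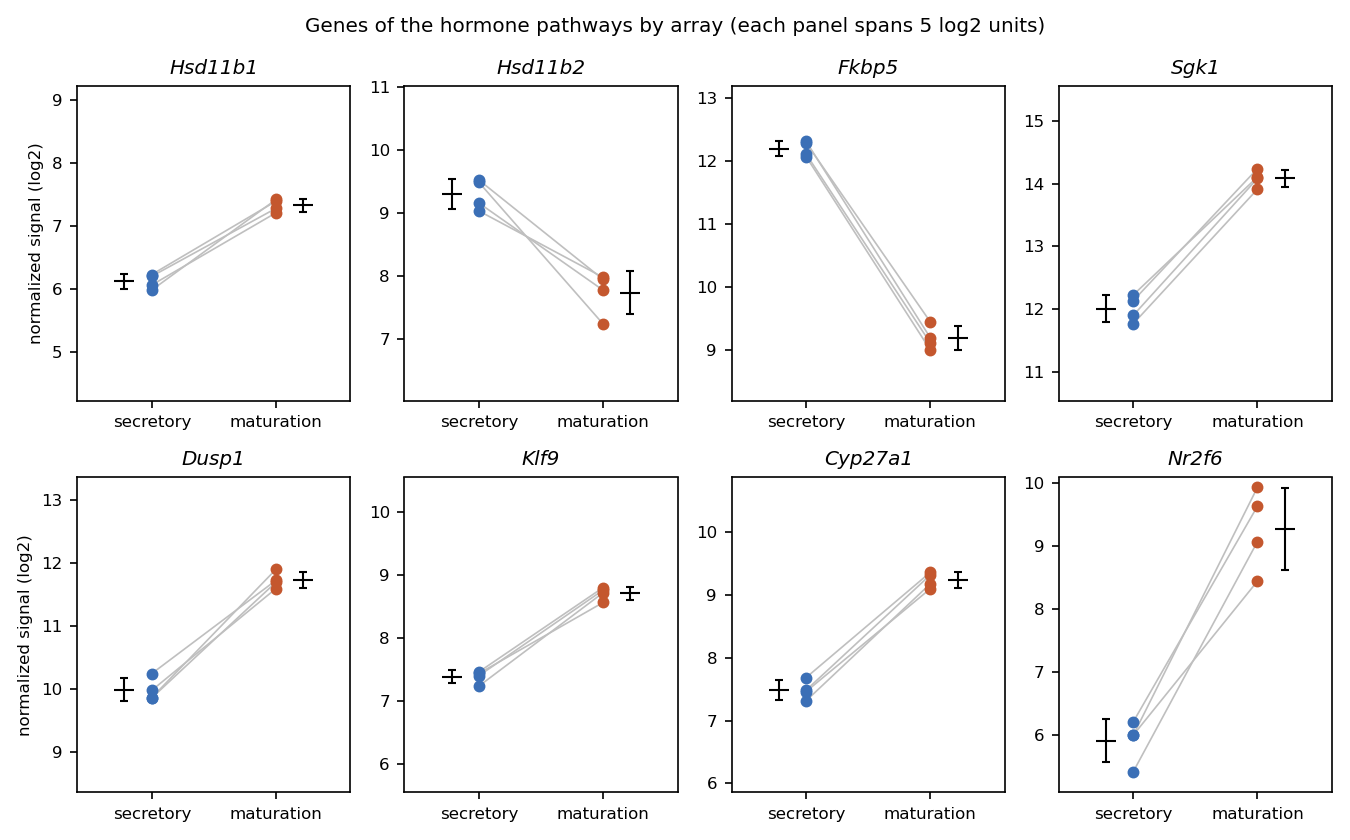
Normalized log2 signal of 8 genes around the hormone receptors on the 8 arrays, all detected; points, lines and bars are as in the plot of the members, and every panel spans the same number of log2 units. Hsd11b1 and Hsd11b2 move in opposite directions, and Fkbp5 falls while Sgk1, Dusp1 and Klf9 rise. All 8 were picked from genes called between the stages, so the lack of overlap in their panels is no separate result.

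Esr1, the oestrogen receptor alpha, was not detected on any array, with detection p-values of 0.657 to 0.995. Of 7 measured genes of oestrogen supply and its membrane receptor 2 were not detected on any array. Only Sts, which frees steroids from their sulfates, was called, where 4.6% of all probes were called higher. It rose by 1.16 log2 units (SE 0.145), while Hsd17b4 and Hsd17b1, which interconvert oestrogens, differed by -0.09 and 0.12. The call of Sts was lost without background correction (0.56) and with an offset of 50 (0.83). Of 6 oestrogen target genes 2 were not detected on any array and none was called by limma or by the methods' test. At an unadjusted p under 0.05 limma had 2 higher and 0 lower, against 15.9% and 18.3% of all probes. Ctsd, the lysosomal protease cathepsin D, was 0.70 higher and Ccnd1, cyclin D1, 0.24 higher. Ctsd was called with arrays scaled to a common median (1.05, adjusted p = 0.00152) and without normalization between arrays (1.25). The medians of the 2 lists, with their undetected genes included, were 0.12 and 0.27.

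Ppara, which drives fatty acid oxidation, was detected only on maturation replicate 2, where its detection p-value was 0.0388. Its normalized level was 4.78 log2 units in maturation and 4.65 in secretory samples, and no fold change is given. Pparg was detected on all 8 arrays. Its deposited signal was 147.2, 144.3, 140.4 and 147.5 in maturation replicates 1 to 4, against 126.4, 124.5, 129.8 and 124.9 in the secretory replicates. As for Thra and Rxra, the separation seen as deposited was not kept after normalization.

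The normalized Pparg level was 5.49 ± 0.0932 log2 units in maturation and 5.48 ± 0.105 in secretory samples (SD, n = 4). The difference of 0.01 had a 95% interval of -0.15 to 0.18 (limma, adjusted p = 0.944), rats 2, 3 and 4 being up by 0.10, 0.03 and 0.11 and rat 1 giving -0.19. Without normalization between arrays it was 0.36 (adjusted p = 0.00176), under the fold threshold and beside the median of 0.40 for probes detected on 8 arrays.

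Of 13 measured genes that PPARs are known to regulate 2 rose and 2 fell, where 4.6% of all probes were called higher and 3.15% lower. The median of the 13 was 0.37. Angptl4, a secreted inhibitor of lipoprotein lipase, rose by 1.34 (SE 0.124) on one probe, while its second probe was not detected. Acaa1a, an enzyme of peroxisomal fatty acid oxidation, rose by 0.85 (SE 0.140), just past the threshold of 0.85 on the log2 scale, and its call was lost when maturation replicate 1 (0.82), maturation replicate 3 (0.78), secretory replicate 2 (0.77) or secretory replicate 4 (0.79) was left out. Adipoq, the fat cell hormone adiponectin, was at least 1.68-fold lower in maturation, where no array detected it, with its fitted values meeting both thresholds, a call lost without background correction and with an offset of 50. At an adjusted p below 0.05 alone, 7 of the 13 were higher and 2 lower, where 26.9% of all probes passed in either direction. Plin2, which coats lipid droplets, and Cd36, a fatty acid carrier, differed by 0.14 and 0.17.

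**Figure D4:**
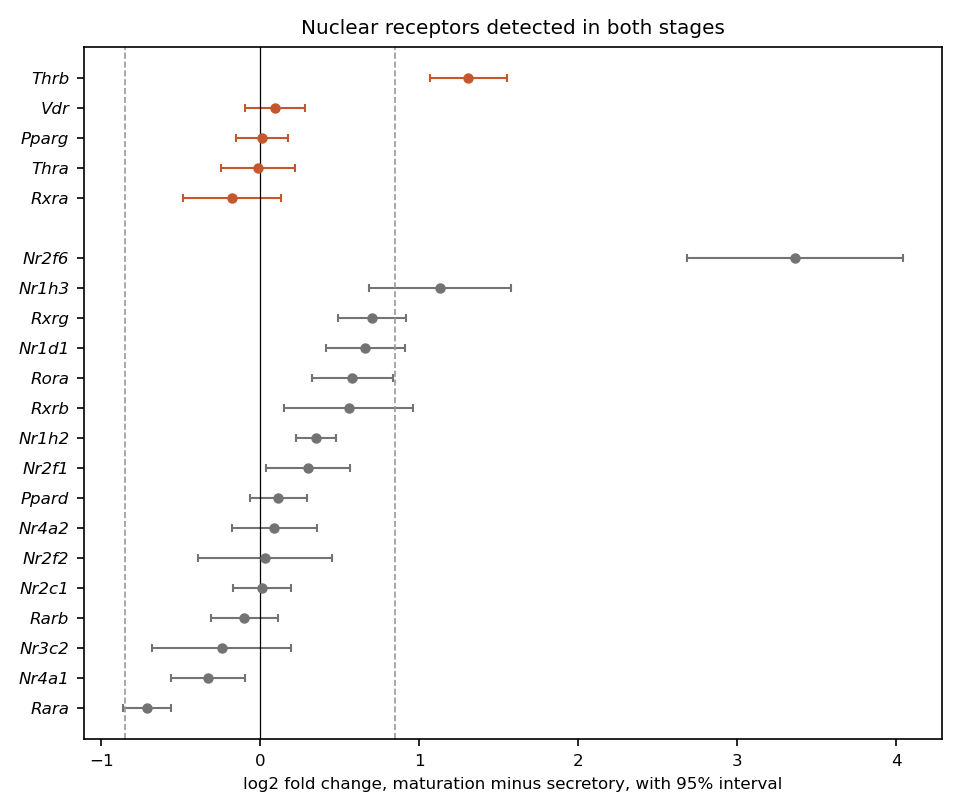
Log2 fold change, maturation minus secretory, with its 95% interval for the 5 members (top) and the 16 other nuclear receptors detected on at least 1 array of each stage; dashed lines mark the 1.8-fold threshold. Thrb, Nr2f6 and Nr1h3 lie beyond it with values of 1.31, 3.36 and 1.13.

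Of the 34 other nuclear receptors on the array 21 were detected on at least 1 array. By limma and by the methods' test 2 were called higher and none was called lower on its main probe. With limma 4.6% of all probes were called higher and 3.15% lower. At an unadjusted p under 0.05 limma had 9 higher and 2 lower of 34, against 15.9% and 18.3% of all probes. Nr2f6, an orphan receptor that represses transcription, was 9.27 ± 0.657 log2 units in maturation and 5.90 ± 0.340 in secretory samples (SD, n = 4), 3.36 higher with SE 0.302 (limma, adjusted p = 2.68e-05). Nr1h3, the oxysterol receptor LXR alpha of macrophages and liver, was 1.13 higher with SE 0.198, and its 4 maturation values spanned 6.27 to 7.31. Its call was lost without background correction (0.53) and with an offset of 50 (0.79). The macrophage markers and other marker sums were higher in the same arrays, and their part in this value was not tested. Rarb, a retinoic acid receptor, had 2 probes that disagreed: the brighter one differed by -0.10 and the other was called lower at -1.34 (SE 0.133, adjusted p = 5.14e-05). Nr2c1, an orphan receptor, differed by 0.01. The median over these receptors was 0.06.

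Coregulators, the proteins that receptors recruit to open or close chromatin, were mostly measured and not called. Of 16 on the array 13 were detected on all 8 arrays. None was called by limma or by the methods' test, and at an unadjusted p under 0.05 limma had 1 higher and 4 lower of 16, against the same 15.9% and 18.3%. Tbl1x, a part of the corepressor complex, differed by -0.02, and Ncoa7, a coactivator, by 0.10.

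**Figure D5:**
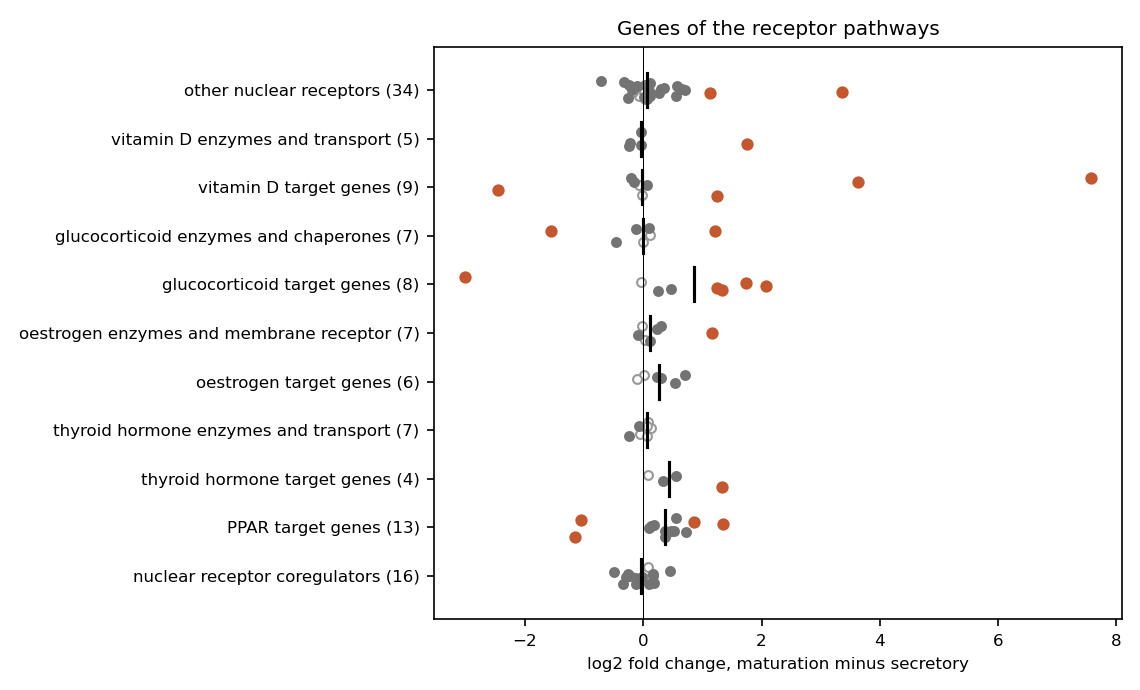
Log2 fold change, maturation minus secretory, of the genes in each list around the receptors, with the number on the array in brackets. Orange points were called, grey points were not, open points were not detected on any array and black bars are list medians, from -0.05 to 0.85; the vitamin D target genes run from -2.45 to 7.57, the latter being S100g, which 2 secretory arrays detected.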

How the data were processed

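The authors scanned Illumina rat BeadChips and deposited, per array and probe, a summarised signal intensity with no normalization, its standard error over beads, its bead number and a detection p-value. The genome build of the probe annotation is not given in the sources used here. Negative control signals were inferred from the detection p-values, and the intensities were corrected by normexp, offset by 16, quantile normalized and set on the log2 scale with neqc of limma 3.58.1 in R 4.3.3. Stages were compared with lmFit and eBayes over all 22523 probes, with Benjamini-Hochberg adjustment, and called at an adjusted p below 0.05 and at least 1.8-fold. Where no array of a stage detected a probe, the fold is a lower bound against the lowest detected signal. For genes with several probes the brightest was used. The number of arrays, 4 per stage, limits the precision.

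The members and gene lists were chosen with earlier results of these data known. All members were named. From each pathway list the text names up to 4 called genes with the greatest fold change and up to 2 with the smallest among those detected on 8 arrays. Besides these it names the genes marked as named after their values were seen, and Cyp27b1 and Lrp2, which had no probe. One listed gene is counted but not reported here. The rule named the markers Enam, Amelx, Klk4 and 2 of a list that moves with a result (Cd68 and Lcp1); Vwf, Cdh5, Lpl, Adipoq, Lep, Des and Alas2 were named as markers after their values were seen. Amelx, the amelogenin gene, differed by -0.53 and was not called. Exact permutation tests, over arrays and within rats, used scipy 1.17.1. Promoters were RefSeq windows of GRCr8, and the search used Python 3.11.15. The fit was tested on simulated data. The maturation and secretory arrays with the same number came from the same rat, according to the methods, and their deviations from the stage means correlated at 0.129 to 0.234 over 11233 probes, against -0.0833 to -0.0426 for different rats. Alternatives were other background corrections, normalizations, offsets, filters, thresholds and tests, the rat as a block, and each array left out; omitting normalization between arrays was added after seeing the data.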

Additional observations from a re-analysis of the deposited data

Results flagged for a closer look

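In 98 groups of 4 arrays, each a gene named here in a stage that detected it, 5 held a sample far from the other 3, where chance would give about 4.9. Vdr was 5.11 log2 units in maturation replicate 4 and 5.02 to 5.03 in the others. Tnfsf11 was 5.18 in secretory replicate 2, the only secretory array that detected it, and 4.82 to 4.87 in the others. Calb1 was 14.84 in maturation replicate 4 against 14.77 in the others. Ccnd1 was 9.84 in maturation replicate 4 against 10.14 to 10.21. Slc16a10 was 5.07 in maturation replicate 2 against 5.39 to 5.44.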

How the results depend on the processing

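Across 18 alternatives, Thrb was called higher in 17 and no member was called lower. Without background correction the number called higher was 0, since Thrb differed by 0.80. The range of Thrb was 1.25 to 1.39 with 1 array left out and 0.80 to 1.803 in all. With the rat as a replicate block its adjusted p was 4.89e-05 and no other member's call changed. Thra, called in none, was 0.0504 with cyclic loess, 0.31 with median scaling and 0.51 without normalization between arrays, and -0.0680 to 0.0606 with 1 array left out. Rxra was 0.0267 with median scaling and 0.23 without normalization between arrays. Pparg was -0.0276 to 0.0484 with 1 array left out.

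Among 44 other genes 744 of 792 values kept direction and call, 19 lost the call, 6 gained it and 23 changed sign. With median scaling the sign changed for Rarb (0.10), Pdia3 (0.11), Calb1 (-0.12), Hsd17b4 (0.10), Slc16a10 (0.0360) and Tbl1x (0.17). Without normalization between arrays it changed for Rarb (0.29), Pdia3 (0.31), Bglap (0.13), Ptges3 (0.0902), Hsd17b4 (0.30), Slc16a10 (0.23) and Tbl1x (0.37), and with cyclic loess for Calb1 (-0.0641) and Tbl1x (0.0214). With 1 array left out it changed for Nr2c1 (-0.0300 to 0.0671), Bglap (-0.76 to 0.18), Hsp90aa1 (-0.0198 to 0.28) and Slc16a10 (-0.12 to 0.0151). Besides the losses given in the report, Ada (0.82) lost its call without background correction, and Acaa1a lost its own without background correction (0.79), without negative controls in normexp (0.84) and with an offset of 50 (0.83). The cause was not tested. Over all probes 1035 were called higher and 710 lower, against 528 and 399 without background correction and 2268 and 332 without normalization between arrays, where the median of all probes was 0.13. The share called higher was 59.3%, 77.6% with median scaling and 87.2% without normalization between arrays. Nr3c1, Esr1, Cyp24a1 and Ppara had no fold change to recompute. Signal near the negative controls limits what can be said of Vdr, Pparg and Rxra.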
